A study of Mus musculus with 2 samples.

Results

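The genes described here are 36 genes of the cell cycle and of DNA replication, out of 55536 mouse genes measured. They were taken by symbol from a list, and each symbol matched 1 gene identifier. The list holds 10 genes of G1 (cyclins D and E, their kinases, Rb1 and E2f1), 11 genes of S phase (the Mcm helicase, Pcna, Cdc45 and enzymes of nucleotide supply), 13 genes of G2 and mitosis, and 2 inhibitors of cyclin-dependent kinases (CDK), Cdkn1a and Cdkn1b. RNA came from the nucleoplasmic fraction, nuclear contents that are not bound to chromatin, of primary macrophages grown from bone marrow of C57BL/6J mice. Lipid A, the part of bacterial lipopolysaccharide that TLR4 recognises, had been given at 100 ng/ml for 20 min. The single group holds 2 libraries, with 1 µg of starting RNA for replicate 1 and 500 ng for replicate 2, so RNA amount and replicate cannot be told apart. The libraries are labelled biological replicates of the same donor entry, with sex and age not collected, and the labels do not say whether the cells came from separate animals. No untreated sample was analysed here, so no effect of lipid A can be read from any value, and only levels and their spread between the libraries are given.

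A cell leaves G1 when D and E cyclins with Cdk4, Cdk6 and Cdk2 phosphorylate the retinoblastoma protein Rb1, which releases E2F factors and with them the genes of S phase. Genes of G2 and mitosis are switched on later, and in resting cells a repressor complex called DREAM holds them down through a short promoter element known as the cell cycle genes homology region. Macrophage progenitors in marrow culture divide in response to the growth factor M-CSF, and mature macrophages largely leave the cycle, with p21 (the product of Cdkn1a) and p27 (the product of Cdkn1b) as brakes. In RNA from a whole culture, fewer cycling cells and less RNA per cycling cell cannot be told apart.

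The labelled cell type was checked against its markers. All 10 macrophage markers reached 1 TPM in each library (TPM is a transcript's level corrected for its length and for library size), with medians of 203 and 172 TPM in replicates 1 and 2 and Lyz2 highest at 2219 and 1998 TPM. None of 10 granulocyte and neutrophil markers reached 1 TPM in both libraries, and their summed level was 3.66 and 5.57 TPM. Libraries held 18194781 and 18667499 counts over genes, and mitochondrial genes took 3.19% and 10.5% of them. The 36 genes together took 0.129% (exact 95% interval 0.127 to 0.130) and 0.117% (0.115 to 0.118) of counts, intervals that cover counting error only.

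Promoter elements are part of how genes of these phases are told apart in other systems, so a few promoters are shown before the values. RefSeq start site windows (GRCm38.p6, 250 bases before to 50 after a start) matched 29 of the 36 genes, and the 7 without one were Aurkb, Ccna2, Ccnd1, Ccnd2, Ccne2, Mcm4 and Rb1. The element TTTGAA, the core of the cell cycle genes homology region, was searched on both strands. It was present for 8 of 11 mitotic genes with a window (Mki67, Top2a, Ccnb2, Cdk1, Aurka, Plk1, Cdc20 and Kif11), 2 of 10 S phase genes (Mcm2 and Cdc45), 0 of 6 G1 genes and 0 of 2 inhibitors, against 20.2% of all 27025 genes in the table. CCAAT, bound by NF-Y and also searched on both strands, was present for 10 of 11 mitotic and 9 of 10 S phase genes, against 2 of 6 G1 genes, 1 of 2 inhibitors and 41.1% of all genes. E2F sites, searched as TTTGGCGC, TTTCCCGC, TTTCGCGC and TTTGCCGC on both strands, were present for 4 of 10 S phase genes (Mcm3, Mcm5, Mcm6 and Mcm7), 1 of 11 mitotic genes (Cdk1) and 1 of 6 G1 genes (Cdk2), against 2.61% of all genes. Such a match is a description of letters and shows no binding. Each stretch ends at the base before the RefSeq start and reads 5′ to 3′ on the gene's strand. Capitals mark TTTGAA or CCAAT in mitotic genes and E2F sites or CCAAT in Mcm genes, on either strand. Overlapping E2F matches form a single run of capitals.
Mki67, chr7:135716380-135716499, minus strand: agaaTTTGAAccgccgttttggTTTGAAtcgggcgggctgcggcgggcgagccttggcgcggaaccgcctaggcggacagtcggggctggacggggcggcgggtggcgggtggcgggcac
Top2a, chr11:99024190-99024299, minus strand: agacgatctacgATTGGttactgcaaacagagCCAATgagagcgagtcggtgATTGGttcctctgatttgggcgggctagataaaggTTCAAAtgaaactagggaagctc
Kif11, chr19:37376322-37376381, plus strand: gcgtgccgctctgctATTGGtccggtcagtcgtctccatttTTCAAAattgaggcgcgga
Mcm6, chr1:128359706-128359825, minus strand: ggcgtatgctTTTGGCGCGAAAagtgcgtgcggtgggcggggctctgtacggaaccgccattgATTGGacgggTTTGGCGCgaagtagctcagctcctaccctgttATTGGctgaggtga
Mcm5, chr8:75109349-75109508, plus strand: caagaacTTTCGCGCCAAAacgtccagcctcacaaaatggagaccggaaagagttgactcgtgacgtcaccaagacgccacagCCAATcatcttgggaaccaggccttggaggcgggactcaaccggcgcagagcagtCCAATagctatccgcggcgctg

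Median levels fell in the order G1, S phase, mitotic. The median TPM was 4.14 and 4.17 over the 10 G1 genes, 3.08 and 3.09 over the 11 S phase genes, and 1.09 and 1.27 over the 13 mitotic genes, in replicates 1 and 2. On the log2(TPM + 0.1) scale the G1 median stood 1.73 ± 0.14 (SD, n = 2) above the mitotic median and the S phase median 1.32 ± 0.14 above it, while G1 stood 0.41 above S phase in both libraries. These differences exceeded the spread between the libraries, which measures how well medians over the same genes repeat and not the spread among genes. Members of each phase covered wide ranges: mean TPM ran from 0.47 to 50.7 in G1, 0.86 to 28.0 in S phase and 0.29 to 6.63 in mitosis. Of the G1 cyclins, Ccne2 (1.875), Ccne1 (0.615) and Ccnd2 (0.47) had a mean TPM below the S phase median of 3.085. Ccnd1 (4.095) and Ccnd3 (3.23) lay above it. The median over all 22015 nuclear-encoded protein-coding genes was 0.59 and 0.48 TPM. A level of at least 1 TPM in each library was reached by 25 of the 36 genes, namely 8 of 10 in G1, 9 of 11 in S phase, 6 of 13 in mitosis and both inhibitors, where 44.9% of all protein-coding genes reached that level. Below 1 TPM in both libraries were 6 genes: Ccne1, Ccnd2, Cdc45, Ccnb2, Plk1 and Cdc20.

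**Figure D1:**
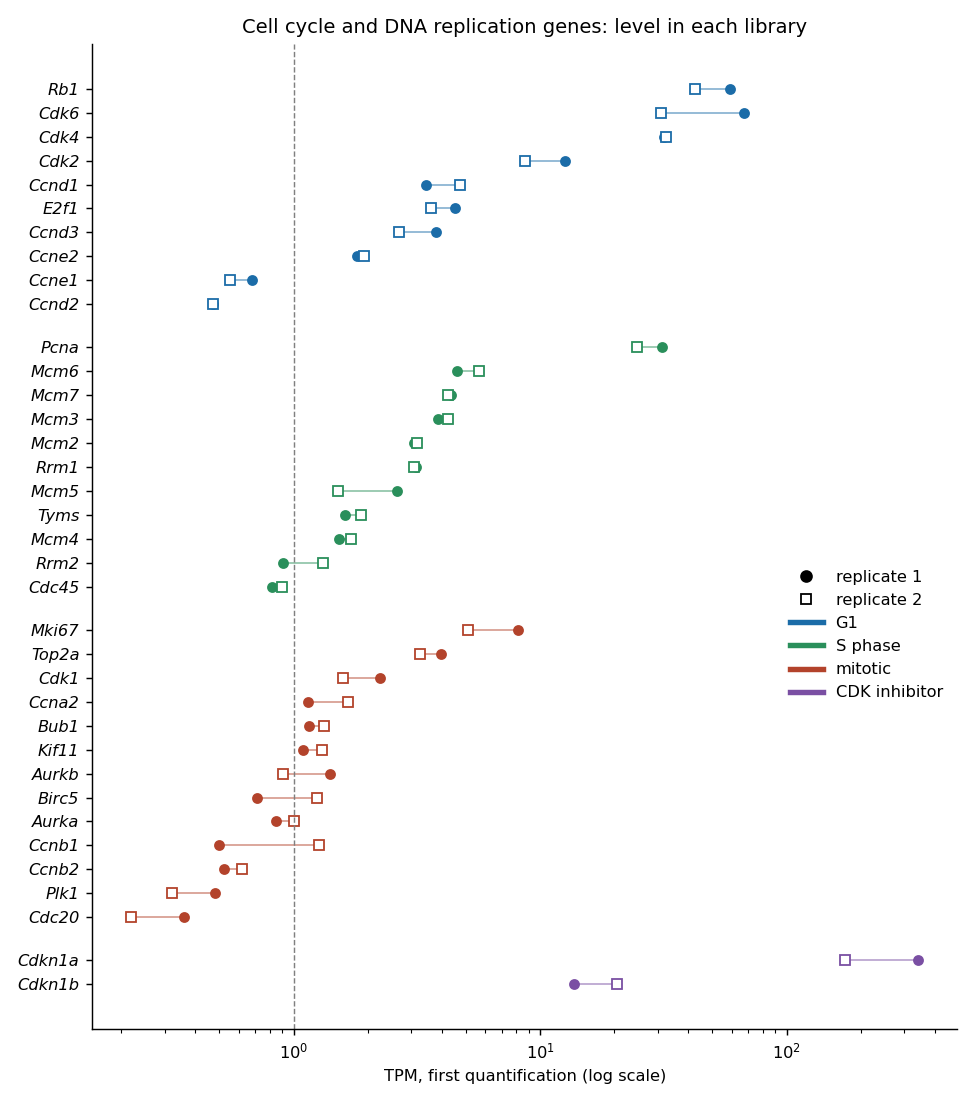
TPM of each of the 36 genes (log axis) in replicate 1 (filled circles) and replicate 2 (open squares), grouped by phase and ordered by mean level, with a dashed line at 1 TPM. Cdkn1a stands above all others at 342 and 173 TPM, and mitotic genes crowd around the line, from Mki67 at 8.14 and 5.12 TPM down to Cdc20 at 0.36 and 0.22 TPM.

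Cdkn1a, whose product p21 inhibits cyclin-CDK complexes and also binds Pcna, was the most abundant of the 36 genes. It lies at chr17:29090976-29100727 (mm10, plus strand). It had 9389 counts and 342 TPM in replicate 1 and 6517 counts and 173 TPM in replicate 2, which placed its mean level at rank 93 among protein-coding genes. In both libraries it stood above every other member, and replicate 2 was lower by 0.47 on the log2 scale of TMM-scaled counts (95% counting interval -0.51 to -0.42). TMM scaling sets the libraries against each other through the bulk of genes, and the interval covers counting error only. Cdkn1b, whose product p27 holds resting cells out of the cycle, went the other way. It had 1001 counts and 13.7 TPM in replicate 1 against 1857 counts and 20.6 TPM in replicate 2, a log2 ratio of 0.95 (0.84 to 1.06). Its annotated transcripts are all of the coding class, and Cdkn1b-202 held 86.8% and 88.2% of its counts. The 2 inhibitors of the list thus differed between the libraries in opposite directions, each beyond counting error.

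Annotated starts of Cdkn1a include a distal start used by Cdkn1a-202 and Cdkn1a-204 and a proximal start, 2790 bases downstream, used by Cdkn1a-201 and Cdkn1a-205. A further start, that of Cdkn1a-203, lies inside the first intron. Windows of the distal and proximal starts are shown because the counts divided so unequally between these 2. Capitals mark p53 half-sites, a motif of 10 letters found in 9.55% of all genes' windows, in the distal stretch. In the proximal stretch they mark TATAA, searched on both strands and found in 28.0% of all genes' windows. The distal window also holds its reverse complement TTATA, 227 bases before the start and outside the stretch shown.
Cdkn1a distal, chr17:29090899-29090978, plus strand: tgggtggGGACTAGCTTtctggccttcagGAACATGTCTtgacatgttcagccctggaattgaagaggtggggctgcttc
Cdkn1a proximal, chr17:29093689-29093768, plus strand: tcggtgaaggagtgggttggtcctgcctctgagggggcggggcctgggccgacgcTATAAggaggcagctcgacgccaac
Transcripts from the proximal start held 76.9% and 89.3% of the gene's counts in replicates 1 and 2, and those from the distal start 0.695% and 0.595%. The rest was on Cdkn1a-203, a coding transcript with 2103 counts (22.4%) in replicate 1 and 661 (10.2%) in replicate 2. Its first exon begins inside the first intron, 497 bases before the second exon of Cdkn1a-201. Within the proximal group the libraries differed. Cdkn1a-201 had 7058 and 3519 counts, and Cdkn1a-205, whose first exon runs 180 bases past the end of the first exon of Cdkn1a-201, had 162 and 2298. An entry on the opposite strand, AC167363.2, covers the first exons of both at chr17:29093416-29094461, and was singled out after its values were seen. It had 4105 counts in replicate 1 and 1094 in replicate 2, a log2 ratio of -1.85 (-1.95 to -1.75). Cdkn1a-205 and this entry together had 4268 and 3392 counts. Because the parts differed in opposite directions, the ratio of their sum had to lie between theirs, so it carries no information on shared reads. Exons of Cdkn1a and of this entry overlap over 273 bases. Strand assignment was not given in the sources used here, and without strand the reads in that overlap cannot be told apart. Cdkn1a and the opposite entry summed to 13494 and 7611 counts, a log2 ratio of -0.77 (-0.81 to -0.73), further from 0 than Cdkn1a alone and in the same direction. The second deposited quantification, a separate estimate from the same libraries, gave Cdkn1a 124 and 120 TPM and a count ratio of -0.58 (-0.62 to -0.54). TPM differed between the quantifications for most genes. Over protein-coding genes at 1 TPM or more in both, the median log2 ratio of second over first was -0.98 in replicate 1 and -0.05 in replicate 2.

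Among the G1 genes, Rb1, Cdk6, Cdk4 and Cdk2 had the highest TPM in both libraries. Rb1, the retinoblastoma protein that restrains E2F (chr14:73183673-73325822, minus strand), had 58.8 and 42.7 TPM from 3122 and 2756 counts, and replicate 2 was lower by 0.12 (-0.19 to -0.05). Cdk6, the cyclin D kinase prominent in blood cells, had 67.0 and 30.9 TPM from 4014 and 4782 counts. Its TPM was thus lower in replicate 2, while its scaled count was higher there by 0.31 (0.25 to 0.37). A lower TPM in replicate 2 was not particular to Cdk6. By TPM with 0.1 added, the log2 ratio was -1.12 for Cdk6 and -0.35 as the median of all genes compared, whose median by scaled counts was 0.00. Nuclear-encoded protein-coding genes together held 28.9% of TPM in replicate 1 and 21.3% in replicate 2. Cdk4, the other cyclin D kinase, had 31.8 and 32.6 TPM from 740 and 646 counts, with a ratio of -0.14 (-0.29 to 0.02) that did not clear counting error. Cdk2, the kinase of cyclins E and A, had 12.6 and 8.71 TPM from 553 and 485 counts, a ratio of -0.13 (-0.31 to 0.05). E2f1, the activating E2F factor, stood lower, at 4.50 and 3.60 TPM from 217 and 212 counts.

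Short transcripts of the 5′ end of Cdk6 weighed more in its TPM than in its counts. Cdk6-203 and Cdk6-205, of 697 and 425 bases, held 7.37% and 1.62% of the gene's counts but 61.4% and 27.3% of its TPM, since TPM divides by length. Cdk6-203 keeps the 147-base first intron of Cdk6-202, the transcript of 11525 bases. Cdk6-202 itself had 3279 and 4424 counts and 15.3 and 16.9 TPM, higher in replicate 2 on both scales. The short transcripts, from 296 and 77.3 counts, had 41.2 and 8.41 of the gene's 67.0 and 30.9 TPM. Other transcripts were lower in replicate 2 as well, with Cdk6-201 at 6.92 and 3.36 TPM and Cdk6-206 at 3.69 and 2.21 TPM. Cdk4 also differed between the libraries in its transcripts. Retained-intron transcripts of Cdk4 and its other transcripts outside the coding class held 60.3% of its TPM in replicate 1 and 84.4% in replicate 2, and Cdk4-209, of 468 bases, had 4.41 and 14.7 TPM while the coding Cdk4-201 had 7.65 and 2.59. In Rb1 transcripts outside the coding class held 41.1% of TPM in both libraries, and 6.40% and 5.80% of counts, but 59.1% and 46.5% of TPM in the second quantification.

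**Figure D2:**
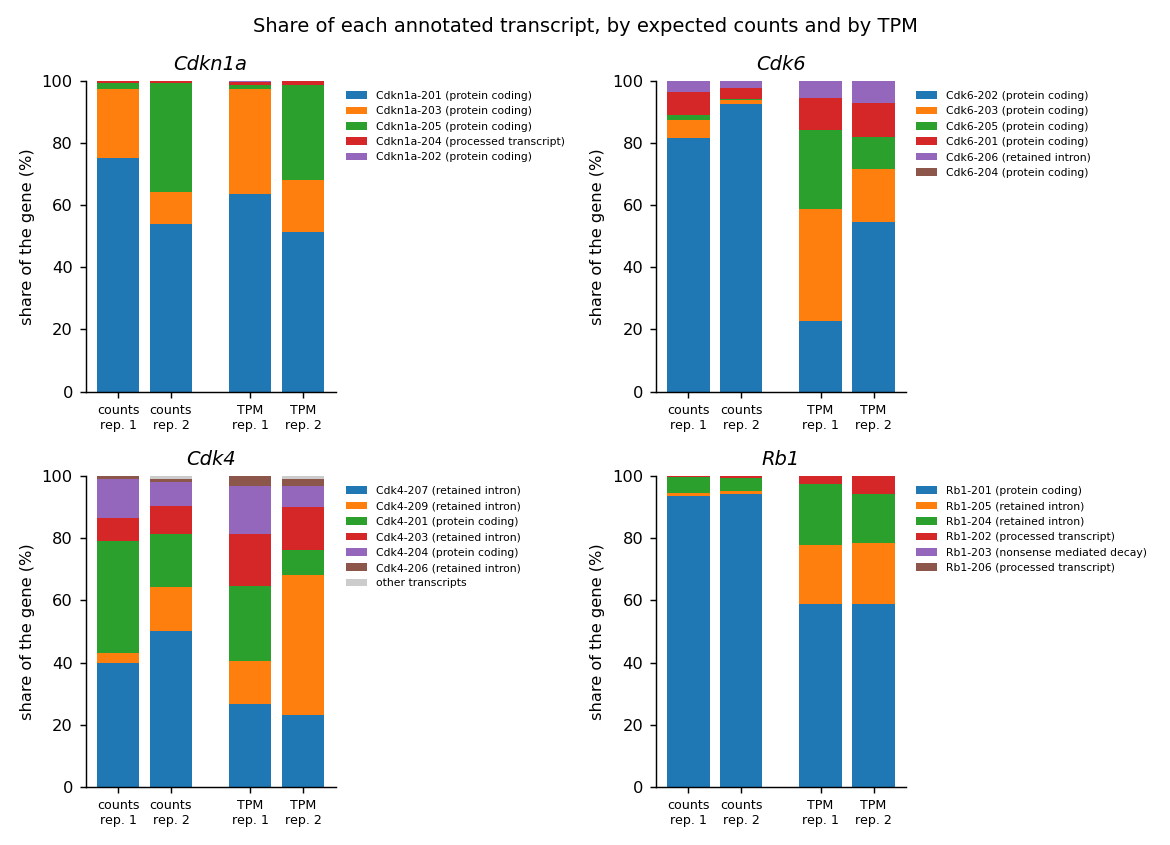
Share of each annotated transcript in the gene's expected counts (left bars) and TPM (right bars), in percent, for Cdkn1a, Cdk6, Cdk4 and Rb1 in replicates 1 and 2. In Cdk6 the long Cdk6-202 takes 81.7% and 92.5% of counts but 22.7% and 54.7% of TPM, and in Cdkn1a the share of Cdkn1a-205 goes from 1.73% to 35.3% of counts between the libraries.

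Among G1 cyclins the levels were low, with Ccnd1 and Ccnd3 highest in the first quantification. In replicate 1 of the second, Ccne2 had 1.79 TPM, Ccnd3 1.56 and Ccnd1 1.36. Ccnd1, the mitogen-induced cyclin D1, had 218 counts and 3.45 TPM in replicate 1 and 370 counts and 4.74 TPM in replicate 2, a ratio of 0.82 (0.58 to 1.07). Its annotated exons overlap LTO1 on the opposite strand over 23.4% of their bases, a gene with 353 and 305 counts. Opposite-strand genes also overlap exons of Cdk4 (Tspan31, 19.7% of bases), Ccne2 (Ints8, 17.4%), Ccna2 (Exosc9, 12.5%) and Rb1 (Rcbtb2, 8.11%, and Lpar6, 6.78%), and reads there cannot be told apart without strand. Ccnd3, cyclin D3, had 3.77 and 2.69 TPM, a ratio of 0.01 (-0.36 to 0.39). Ccne2, cyclin E2, had 55.4 and 96.9 counts and 1.81 and 1.94 TPM, a ratio of 0.87 (0.39 to 1.38). Ccne1, cyclin E1, stayed at 0.68 and 0.55 TPM from 17 and 18 counts. Ccnd2, cyclin D2, had 0.47 TPM in both libraries from 46 and 54.6 counts. Its level depended on the estimate. The first quantification's posterior-mean TPM was 43.6 and 28.5, with credibility bounds of 0.60 to 128 and 0.61 to 83.4 TPM. The second quantification gave 0.88 and 5.37 TPM, of which 49.3% and 85.5% came from Ccnd2-203 and Ccnd2-205, transcripts of 127 and 115 bases with 0.493 and 3.47 estimated counts between them.

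In S phase Pcna, the sliding clamp of DNA polymerases, stood apart. It had 650 counts and 31.3 TPM in replicate 1 and 621 counts and 24.7 TPM in replicate 2, a ratio of -0.01 (-0.17 to 0.15), and lay at percentile 90.8 of protein-coding genes. Of its 31-base words, 23.3% also occur in the pseudogene Pcna-ps2, which was assigned 1.09 and 1.19 counts. The Mcm genes encode the 6 subunits of the replicative helicase, which work in equal numbers, and their levels ran from 1.53 to 4.61 TPM in replicate 1 and from 1.52 to 5.63 in replicate 2. Mcm6 was highest at 4.61 and 5.63 TPM, followed by Mcm7 at 4.34 and 4.24, Mcm3 at 3.85 and 4.22, Mcm2 at 3.08 and 3.17, Mcm5 at 2.64 and 1.52 and Mcm4 at 1.53 and 1.71 TPM. The order was the same in both libraries except that Mcm5 and Mcm4 changed places. It depended on the estimate. In the second quantification Mcm7 (1.92 TPM) stood above Mcm6 (1.81) in replicate 1, and Mcm2 (2.55) above Mcm3 (2.36) in replicate 2. Retained-intron transcripts held 53.8% and 43.8% of Mcm3 TPM in the first quantification, and 13.7% and 35.9% of Mcm6 TPM. Higher in replicate 2 beyond counting error were Mcm3, with 115 and 176 counts (ratio 0.67, 0.33 to 1.03), Mcm4, with 98 and 134 counts (0.51, 0.12 to 0.90), and Mcm6, with 251 and 290 counts (0.27, 0.02 to 0.52). Mcm2 (0.28, -0.02 to 0.57), Mcm7 (0.19, -0.19 to 0.57) and Mcm5 (-0.24, -0.70 to 0.22) did not clear it. For Mcm7, 33.4% of 31-base words occur in other genes as well, most of them in the pseudogene Gm5487, which had 0 counts.

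Of the 3 enzymes of deoxynucleotide supply among the 36 genes, Rrm1 was highest in both libraries. Rrm1, the large subunit of ribonucleotide reductase, had 181 counts in each library and 3.14 and 3.09 TPM. Rrm2, its small subunit, whose supply limits the enzyme in S phase, had 26 and 37 counts and 0.91 and 1.32 TPM. Tyms, thymidylate synthase, had 66 and 110 counts and 1.62 and 1.88 TPM, a ratio of 0.79 (0.34 to 1.26). Most of its TPM in the first quantification, 82.1% and 90.4%, lay on transcripts outside the coding class, against 37.3% and 30.5% in the second. Cdc45, a helicase cofactor at origins, had 26 and 29 counts and 0.82 and 0.90 TPM.

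Mki67, which encodes the proliferation antigen Ki-67, led the mitotic genes (chr7:135689784-135716361, minus strand). It had 1524 counts and 8.14 TPM in replicate 1 and 1087 counts and 5.12 TPM in replicate 2, a ratio of -0.43 (-0.54 to -0.31). Top2a, topoisomerase II alpha, which untangles chromosomes, followed at 197 and 294 counts and 3.97 and 3.27 TPM, with the scaled count higher in replicate 2 by 0.64 (0.37 to 0.90). Mki67 and Top2a, both standard marks of cycling cells, thus differed between the libraries in opposite directions on the count scale. Cdk1, the mitotic kinase, had 54 counts in each library and 2.25 and 1.58 TPM, and its partner Ccna2 (cyclin A2) had 44.2 and 83.1 counts and 1.15 and 1.66 TPM, a ratio of 0.97 (0.43 to 1.54). The B cyclins were scarcer, with Ccnb1 at 18 and 32 counts (0.50 and 1.27 TPM) and Ccnb2 at 13 and 19 counts (0.52 and 0.62 TPM).

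Counts of spindle and checkpoint genes were low. Bub1, a spindle checkpoint kinase, had 48 and 54 counts and 1.16 and 1.33 TPM. Kif11, the kinesin that separates spindle poles, had 90 and 133 counts and 1.09 and 1.31 TPM, a ratio of 0.62 (0.23 to 1.03). Aurkb, the kinase of the chromosomal passenger complex, had 30 and 24 counts and 1.40 and 0.91 TPM. Birc5 (survivin), a subunit of that complex, had 35 and 71 counts and 0.71 and 1.25 TPM, a ratio of 1.07 (0.48 to 1.71). Aurka, the kinase of spindle poles, had 15 and 36 counts and 0.85 and 1.00 TPM, a ratio of 1.30 (0.42 to 2.30). Plk1, polo-like kinase 1, had 18 and 15 counts and 0.48 and 0.32 TPM. Cdc20, the activator of the anaphase-promoting complex, had 5 counts in each library, too few for a ratio. These low values are uncertain where copies exist: 18.7% of the 31-base words of Plk1 occur elsewhere, mostly in the pseudogene Plk-ps1 with 78 and 52 counts, and the shares for Ccnb1 and Cdc20 are 27.8% and 26.7%. A count of 0 would allow 3 counts, or 0.165 and 0.161 CPM (counts divided by the library total and rescaled), so every one of the 36 genes was above that limit in both libraries.

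Between the libraries, mitotic genes had the highest median ratio of the phases, while their summed counts went the other way. They summed to 2091 counts (0.0115% of the library total) in replicate 1 and 1907 (0.0102%) in replicate 2. Mki67 alone had 1524 and 1087 of these. A ratio was computed for the 35 genes whose mean scaled count was at least 10, all but Cdc20, and compares 2 libraries, not conditions. Over 2-fold higher in replicate 2, with the interval clear of 0, were 2 of the 35, Birc5 and Aurka, where 4.36% of all 15557 genes compared were. None was over 2-fold higher in replicate 1, where 3.66% of all genes were. Higher in replicate 2 beyond counting error by any amount were 14 of 35 against 24.5% of all genes: Ccnd1, Ccne2 and Cdk6 in G1, Mcm3, Mcm4, Mcm6 and Tyms in S phase, Top2a, Ccna2, Ccnb1, Kif11, Birc5 and Aurka in mitosis, and Cdkn1b. Higher in replicate 1 were 3 of 35, Rb1, Mki67 and Cdkn1a, against 25.6% of all genes. The median log2 ratio was 0.08 over G1 genes (below 0 with library totals and on the TPM scale), 0.27 over S phase genes and 0.61 over 12 mitotic genes, against 0.00 over all genes, of which the central 95% ran from -1.20 to 1.28. With library totals as the scale, 12 of the 14 calls were shared, without Ccnb1 and Mcm6, and Cdk2 and Cdk4 joined those higher in replicate 1. In the second quantification the medians lay closer together, at 0.07 over G1, 0.11 over S phase and 0.14 over mitotic genes. There the calls were nearly even, with 9 genes higher in replicate 2 and 8 in replicate 1. The 9 held 8 of the 14, without Mcm3, Mcm6, Kif11, Ccnb1, Birc5 and Aurka, and E2f1 in addition. The 8 held Rb1, Mki67 and Cdkn1a, and Cdc45, Cdk1, Cdk2, Cdk4 and Mcm5 in addition.

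**Figure D3:**
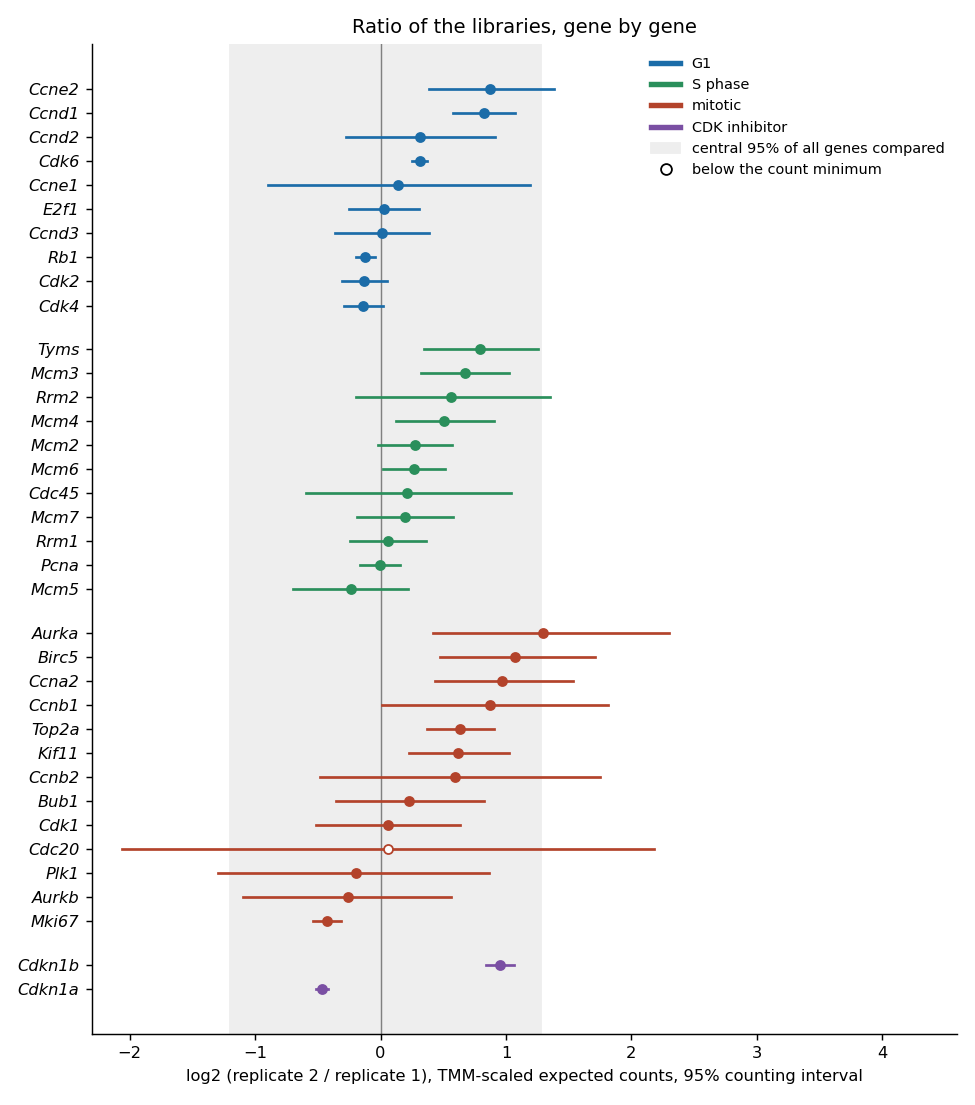
Log2 ratio of replicate 2 over replicate 1 of TMM-scaled expected counts for the 36 genes, with exact 95% counting intervals as bars, the central 95% of all genes compared (-1.20 to 1.28) shaded, and the gene under the count minimum, Cdc20, drawn open. Aurka alone lies past the shaded band, at 1.30, and Mki67 lies left of 0 at -0.43 while 9 of 12 mitotic genes compared lie right of it.

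Some markers of the granulocyte and neutrophil list were higher in replicate 2, on few counts. Ngp had 13 and 48 counts, Ltf 24 and 46 and Mpo 1 and 10 in replicates 1 and 2, whereas S100a9 had 9 and 6 and S100a8 3 and 2, and Ly6g had 0 in both. Of the 10 markers only Ngp and Ltf passed the count minimum, and both were higher in replicate 2 beyond counting error. Of 6 stem and progenitor markers 1 reached 1 TPM in both libraries, Kit at 1.29 and 1.27 TPM, and Myb, a progenitor factor, had 12 counts in each. Among erythroid markers Alas2 had 3.54 and 3.63 TPM while Hbb-bs had 0 counts, and among B cell markers Ighm had 3.59 and 2.57 TPM while Pax5 and Vpreb1 had 0. The T and NK cell list summed to 0.32 and 0.03 TPM, with Lck at 0.28 and 0 TPM. Cd3d of that list had 0.04 and 0.03 TPM, but 2.90 and 9.43 TPM in the second quantification. The stromal list summed to 0.16 TPM in each library, with Col1a1 highest. The part of such cells in the levels of the mitotic genes was not tested.

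The 2 deposited quantifications differed widely for a few of the genes, most of all Birc5 and Tyms. Over protein-coding genes with at least 10 counts, the second gave a median of 1.36 and 1.61 times the counts of the first in replicates 1 and 2. TPM did not follow the counts, with a median log2 ratio of second over first of -0.98 and -0.05. Cdkn1a (1.15 and 1.32 times), Rb1 (1.21 and 1.40) and Cdk4 (1.13 and 1.38) each lay below the median of the same library. Birc5 lay far above, with 360 and 457 estimated counts against 35 and 71, or 10.3 and 6.43 times as many. Nearly all of the excess was on Birc5-202, a transcript of 3334 bases. Tyms had 7.52 and 7.20 times and Rrm1 3.66 and 4.71 times as many counts in the second quantification, followed by Ccnd2 with 3.48 and 3.77 times and Cdk1 with 3.39 and 3.07 times. For Birc5, 5.03% of 31-base words occur in any of 1393 other genes, for Tyms 11.4% in 419 and for Rrm1 5.35% in 1650, whereas for Cdk1 only 0.0202% occur elsewhere. The cause of these differences was not tested. In the second quantification Birc5 would stand at 1.88 and 3.39 TPM, Rrm1 at 5.55 and 9.04 and Cdk1 at 3.99 and 4.96, the latter above Top2a at 3.07 and 4.20. That place of Cdk1 rested on Cdk1-207, a transcript of 695 bases with 0 counts in the first quantification. It held 3.06 and 3.48 TPM, or 76.8% and 70.1% of the Cdk1 level in the second.

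**Figure D4:**
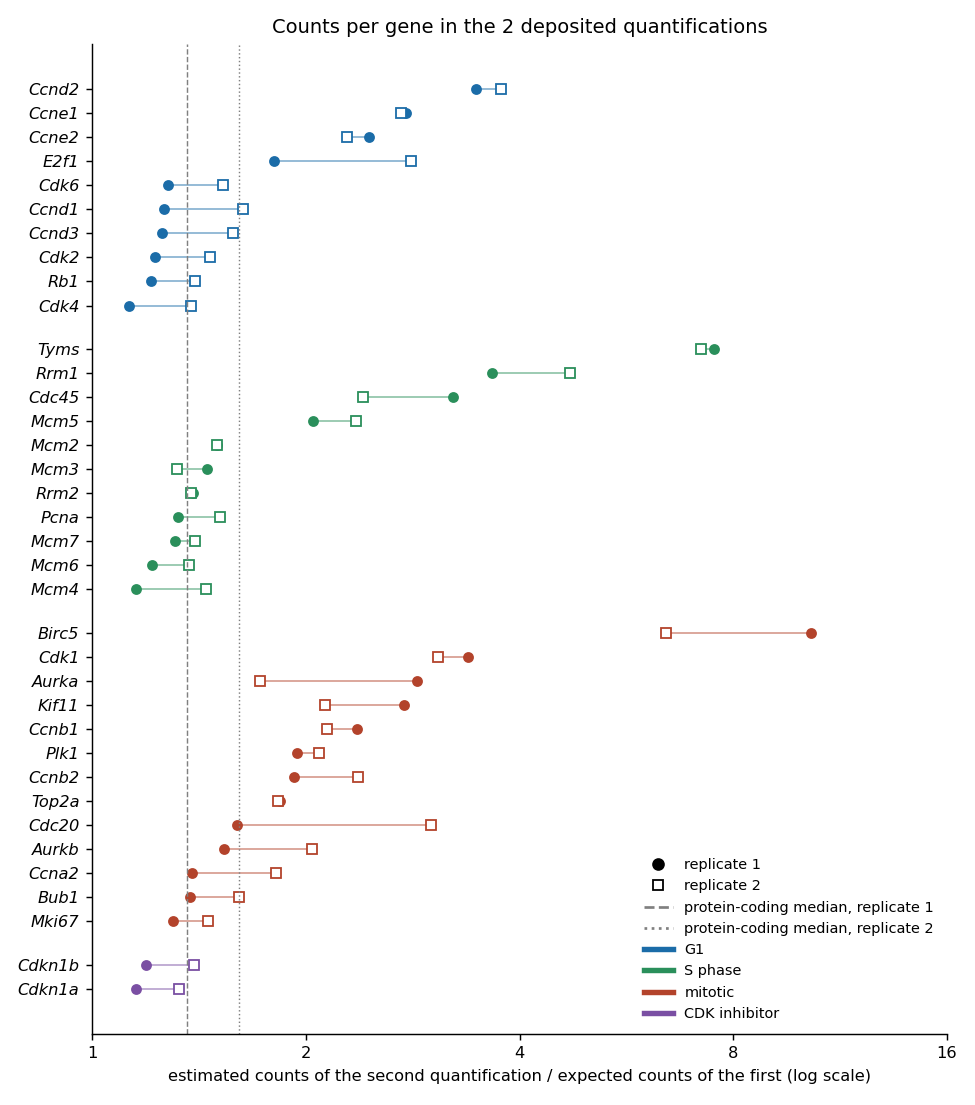
Ratio of estimated counts in the second quantification to expected counts in the first (log axis) for the 36 genes in replicate 1 (filled circles) and replicate 2 (open squares), with the protein-coding medians of 1.36 (dashed) and 1.61 (dotted). Birc5 at 10.3 and 6.43, Tyms at 7.52 and 7.20 and Rrm1 at 3.66 and 4.71 lie furthest right, and both inhibitors lie below the median of the same library.

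Nuclear RNA holds unfinished and unspliced transcripts, so the class of the transcripts was compared as well. Transcripts outside the coding class are, for example, those with a retained intron, and a gene with none annotated has a share fixed at 0, as Mki67, Mcm4, E2f1 and Cdkn1b do. Over the 23 genes that have one and whose mean TPM was at least 1, these transcripts held a median share of 35.9% of TPM in replicate 1 and 30.98% in replicate 2. Over the 8473 protein-coding genes of the same kind the medians were 36.6% and 37.6%. By expected counts rather than TPM the medians were 12.2% and 9.40% over the 23 genes and 20.1% and 20.8% over all. The medians of the 23 genes thus lay below those of all such genes in both libraries, by a small margin for TPM in replicate 1, and the difference was not tested. With the genes fixed at 0 included, the medians by TPM were 33.0% and 26.9% over 27 genes and 29.4% and 29.6% over 10271, so the order in replicate 1 turned. By TPM of the first quantification, the highest shares were 84.4% for Cdk4 and 90.4% for Tyms, both in replicate 2. In the second quantification these shares were 81.5% for Cdk4 and 30.5% for Tyms in that library.

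Other genes of the cycle were read from 10 lists of 119 genes, and 89 of them reached 1 TPM in each library. Of 110 compared, 28 were higher in replicate 2 beyond counting error, where 24.5% of all genes were, and 18 in replicate 1, where 25.6% were, with a median log2 ratio of 0.03. Over 2-fold were Pold2, Cenpf and Kif2c in replicate 2 and Ctps in replicate 1, against 4.36% and 3.66% of all genes. Of the kinetochore and spindle genes, 8 of 17 compared were higher in replicate 2 and 0 in replicate 1, against the same 24.5% and 25.6%, with a median ratio of 0.56. Its highest gene, Cenpa, the histone H3 variant of centromeres, had 97.7 and 94.5 TPM, above Mki67, the highest of the 13 mitotic genes, in both libraries. Retained-intron transcripts held 64.6% and 83.1% of that level. Incenp, the scaffold of the passenger complex, followed at 30.5 and 19.0 TPM. Kif2c, a spindle kinesin, was lowest at 0.07 and 0.33 TPM, but had 1.85 and 2.40 in the second quantification.

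Among brakes outside the 36 genes, Rbl2 (p130), the pocket protein of resting cells, had 20.0 and 18.4 TPM and Cdkn1c (p57) 9.92 and 6.54, while Cdkn2a, which encodes p16 and p19ARF, had 1 count in each library. E2F and DP factors were led by the DP subunit Tfdp1 at 14.2 and 9.59 TPM and the repressor E2f4 at 12.0 and 9.79, and E2f7 was lowest at 0.35 and 0.50 TPM, with 10.4 and 14.2 TPM in the second quantification. Of the DREAM and MuvB subunits, Rbbp4 had 14.1 and 9.89 TPM, Lin37 13.6 and 8.57, and Mybl2, the B-Myb that replaces the repressor in cycling cells, 2.07 and 0.51. Cdk7, the CDK-activating kinase, had 16.8 and 11.1 TPM and Ccng2 14.3 and 10.5, and Ccnb3 had 0 counts.

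The machinery of origins and forks was uneven. Orc4 and Orc3, subunits of the origin recognition complex, had 42.3 and 42.4 TPM and 43.0 and 40.2 TPM, while Cdc6, the licensing factor made in cycling cells, had 0.27 and 0.31. Rfc2, a subunit of the clamp loader, had 61.6 and 31.3 TPM, of which retained-intron transcripts held 88.2% and 89.7%. Over 15.1% of its exon bases it overlaps Lat2 on the opposite strand, a gene with 2474 and 1670 counts. Reads there cannot be told apart without strand. Pold3 had 33.0 and 23.9 TPM. Rfc4 was lowest at 0.52 and 0.55 TPM, with 0.91 and 2.45 in the second quantification, where Fen1 was lower at 0.25 and 0.41. In nucleotide supply Samhd1, which breaks down deoxynucleotides and is abundant in macrophages, had 210 and 156 TPM, well above Tk1 (thymidine kinase 1) at 30.2 and 21.9. Retained-intron transcripts held 86.8% and 86.1% of the Tk1 level, and 38.1% and 35.4% of that of Samhd1. Mdm2, the ubiquitin ligase of p53 and, like Cdkn1a, a known p53 target, led the checkpoint list at 143 and 65.3 TPM. Retained-intron transcripts held 67.1% and 48.7% of that level. The kinase Atr followed at 15.4 and 12.8 TPM, of which such transcripts held 62.2% and 78.8%. The phosphatase Cdc25c was lowest at 0.19 and 0.31 TPM, but had 4.78 and 3.22 in the second quantification. Anapc1 and Anapc5, subunits of the anaphase-promoting complex, had 51.1 and 48.9 TPM and 51.1 and 31.6 TPM, against 0.28 and 0.34 for Ube2c, the ubiquitin-conjugating enzyme that works with it in mitosis.

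**Figure D5:**
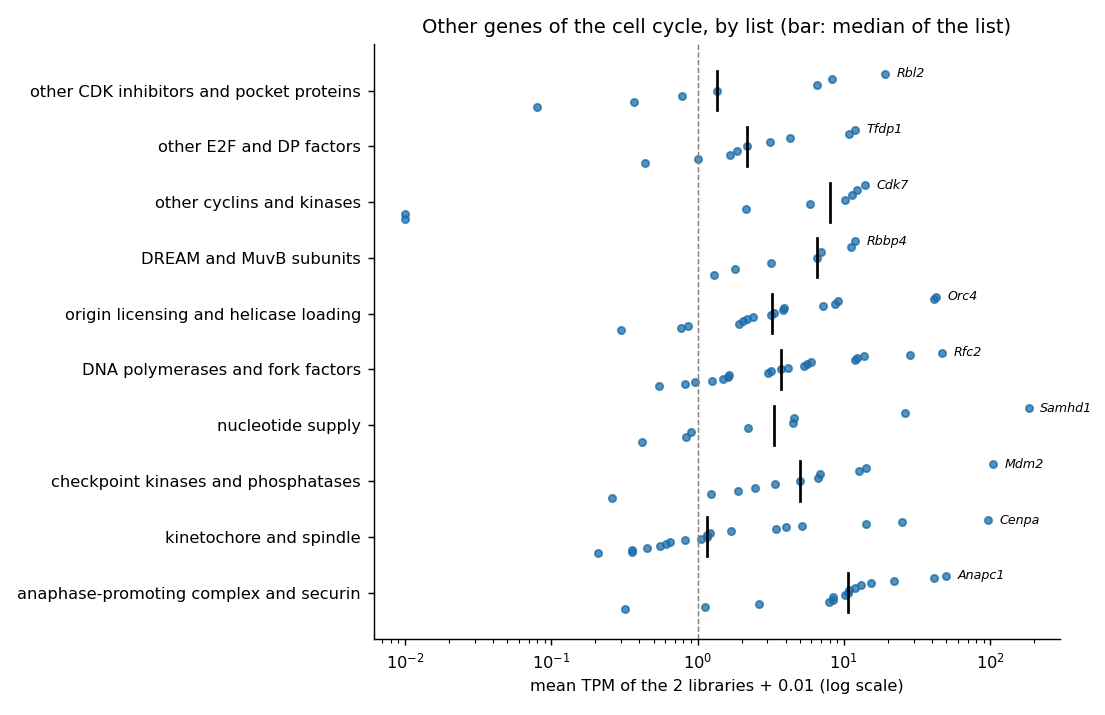
Mean TPM of the libraries plus 0.01 (log axis) for 119 other genes of the cell cycle in 10 lists, 1 point a gene, with a bar at the median of each list, a dashed line at 1 TPM and the highest gene named. The anaphase-promoting complex has the highest median of the lists, and kinetochore and spindle genes the lowest, apart from Cenpa at 97.7 and 94.5 TPM.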

How the data were processed

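The members and gene lists were chosen with earlier results of these data known. Ribosome-depleted nucleoplasmic RNA was sequenced per library, and the labels give a size range of 250 to 400. The first quantification, as deposited, holds per gene and per transcript expected counts, TPM, FPKM and posterior-mean TPM with credibility bounds (a signal scale in TPM units), with RSEM's column names per the file headers. The deposited second quantification holds estimated counts and TPM per transcript, with kallisto's column names per the file headers, and was summed per gene. Notes with the files name mm10 and GENCODE M21. Program versions, aligner settings and strand setting were not given in the sources used here.

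Expected counts were rounded and scaled with TMM (edgeR 4.0.16, R 4.3.3). The libraries were compared by log2 ratio (replicate 2 over replicate 1, prior count 0.5, minimum mean scaled count 10) with exact binomial 95% intervals, computed with Python 3.11.15, numpy 2.4.6, pandas 2.3.3 and scipy 1.17.1 and tested on simulated data. With 1 group, no test between groups was possible. Reads carry no molecular identifiers, so intervals cover counting error only. Shared sequence was counted in 31-base words over annotated transcripts, and promoter windows came from RefSeq (GRCm38.p6). All 36 members are named, with the 2 highest and the lowest gene of each pathway list and the highest of each marker list. The lowest gene of the nucleotide supply list is not reported here. Other genes were named after their values were seen. Alternatives were other scalings (DESeq2 1.42.0 size factors, library totals), units, minimums, the second quantification and single replicates.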

Additional observations from a re-analysis of the deposited data

How the results depend on the processing

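No paired analysis was possible because there is only 1 group, so replicate numbers pair nothing. Of 66 alternatives over 10 results, 43 stayed within the limits set for a change, 20 moved a value and 3 changed a sign. The count of genes at 1 TPM stayed within 1.5 times throughout, from 17 at a minimum of 2 TPM to 36 with TPM rescaled over protein-coding genes, and was 26 and 29 in single libraries. Median levels of 4.15 TPM (G1), 3.09 (S phase) and 1.18 (mitotic) became 4.72, 3.51 and 1.35 as FPKM, 8.47, 3.78 and 1.41 as posterior-mean TPM, and 16.9, 12.6 and 4.86 as TPM rescaled over protein-coding genes. In the second quantification G1 became 3.72 and S phase 2.05, and the mitotic median 1.07. The order G1, S phase, mitotic held in each of these units. In single libraries they ran from 4.14 to 4.17, 3.08 to 3.09 and 1.09 to 1.27. The 2 genes over 2-fold higher in replicate 2 became 1 with library totals (Aurka), 1 with a minimum of 50 (Birc5), 1 in the second quantification (Ccna2), 1 by TPM with 0.1 added (Ccnb1) and 0 with 1 added. None was over 2-fold higher in replicate 1 except Cdk6, 1 gene by TPM with 0.1 or 1 added. The G1 median ratio of 0.08 became -0.014 with library totals, -0.29 by TPM with 0.1 added and -0.19 with 1 added. By TPM with 0.1 added the median of all genes was -0.35, and with 1 added -0.27. The mitotic median was 0.20 and 0.10, so relative to all genes this median kept its direction. With library totals the median of all genes was -0.10. The class share over the 27 genes at a mean of 1 TPM, taken as the mean of the medians in each library, was 30.0% and became 9.53% by expected counts and 38.4% in the second quantification, and ran from 26.9% to 33.0% in single libraries. The causes were not tested. Depth limits the mitotic genes most: the median half-width of the log2 counting interval was 0.26 in G1, 0.38 in S phase and 0.60 in mitosis.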
